A study of Homo sapiens with 3 samples.

Results

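HMGA1 occupancy on the long arm of chromosome 20 (20q) was examined in the leukaemic cell line DAMI, whose disease state the labels give as MPN/AML (myeloproliferative neoplasm and acute myeloid leukaemia) and which was grown in RPMI medium with fetal bovine serum. Chromatin from sonicated nuclei gave 3 libraries with 1 sample each, an HMGA1 ChIP, a histone H3 ChIP and input DNA made without antibody, and the authors deposited 1 peak list of HMGA1 over input and 1 of HMGA1 over H3. Peaks were taken as 20q when the summit lay at a zero-based hg19 position of 29400000 or more on chromosome 20. This gave 1655 of the 385953 input-list peaks (0.429%) and 846 of the 263033 H3-list peaks (0.322%), and the last base under a peak was 62962702, so the arm was taken as 33.6 Mb long. The short arm (20p, 23.9 Mb), with summits below 26000000 and without the stretch from 13976146 to 16033841, served as the comparison and held 1815 and 906 peaks. All libraries come from the same line with no treatment given in the labels, no sample is repeated, and both lists rest on 1 set of HMGA1 reads, so a site present in both is not a repeat measurement. Whether the libraries share a culture is not given in the labels.

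HMGA1 is a small architectural chromatin protein whose AT-hooks bind the minor groove of AT-rich DNA and bend or loosen it. Deletion of part of 20q is a recurrent lesion of myeloproliferative neoplasms, myelodysplastic syndromes and acute myeloid leukaemia, and the arm carries chromatin genes such as ASXL1, a Polycomb-associated regulator, and L3MBTL1, a reader of methylated histones. Input DNA reflects the amount of DNA sampled from a region, and histone H3 is a core component of nucleosomes, so its ChIP samples nucleosomal DNA. Peaks are named by hg19 position only, since genes and sequence of that build were not used here.

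Each peak has 2 read levels at its summit, both recovered from the authors' fold and p-value. The pileup is the number of HMGA1 reads over the summit. The control level is the number of input or H3 reads expected there, and it never falls below a genome-wide floor, which was 2.78 reads over input and 2.19 over H3. Control levels are given below as multiples of that floor. With 1 library per antibody no test between arms was possible, and intervals are Wilson 95% intervals that cover counting error only.

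The arm was sparse in HMGA1 peaks compared with the short arm of the same chromosome. Over input, 20q held 49.3 peaks per Mb and 20p held 75.8, a ratio of 0.65 (interval 0.609 to 0.695). Over H3 the densities were 25.2 and 37.8 peaks per Mb, a ratio of 0.666 (0.607 to 0.732). In full 1 Mb bins the 32 bins of 20q held from 5 to 94 input-list peaks, with a median of 47.5 and quartiles of 34.2 and 51.8. The 22 full bins of 20p held from 30 to 142, with a median of 71 and quartiles of 55 and 85. The bins of the arms thus overlapped in number, but 25 of the 32 bins of 20q lay below the lower quartile of 20p in each list. Against 2695 occupied 1 Mb bins of the autosomes outside 20q, whose median was 118 input-list peaks, all 32 lay below the median and 27 lay below the lower quartile of 73. The median of the 20p bins, 71, also lay below that quartile, so low numbers against the autosomes were not particular to 20q.

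**Figure D1:**
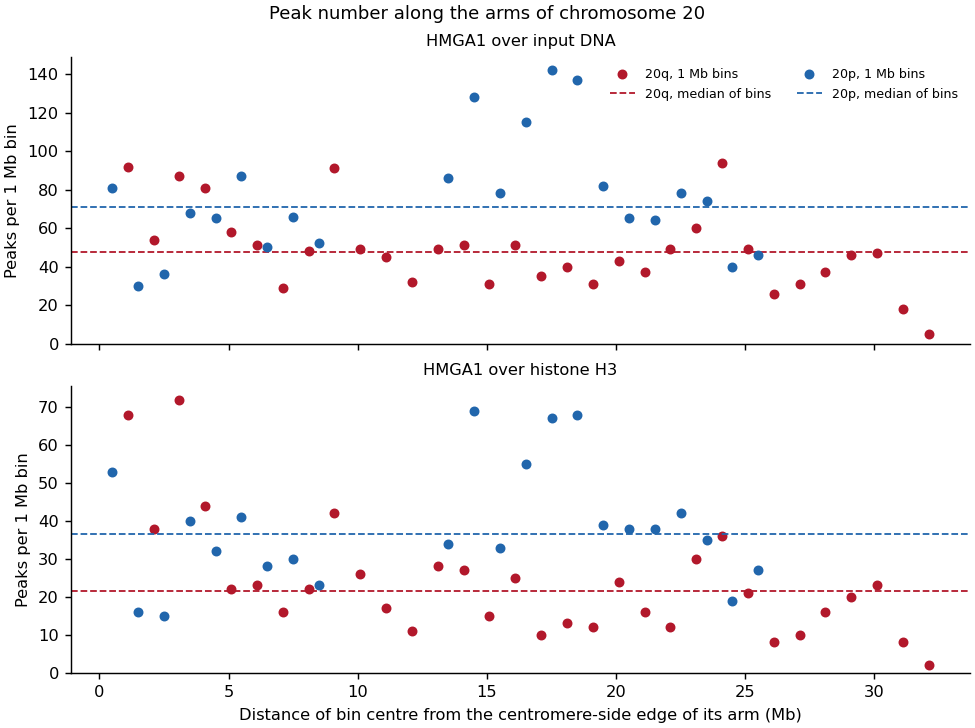
Number of HMGA1 peaks in each full 1 Mb bin (points) against the distance of the bin centre from the centromere-side edge of its arm in Mb, for 20q (red) and 20p (blue), over input (top) and over H3 (bottom); dashed lines are the medians of bins. The medians are 47.5 on 20q and 71 on 20p over input, and 21.5 and 36.5 over H3.

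The direction of that difference depended on which peaks were counted. Among the 20000 peaks with the highest q-value in each list, 20q held 59 and 20p held 28 over input, a density ratio of 1.5, and 55 and 23 over H3, a ratio of 1.71. As a share of the arm's own peaks these were 3.56% (input) and 6.5% (H3), where 5.18% and 7.6% of the whole lists are among the 20000. Of the 59 input-list peaks 37 lay in the first 2.35 Mb of the arm, which is 7.0% of its length, and of the 55 H3-list peaks 39 did. The next 1.5 Mb held 6 (input) and 5 (H3), the 26.75 Mb after it 14 and 9, and the last 2.96 Mb 2 in each list. The 26.75 Mb stretch is longer than 20p and held fewer of these peaks, so the direction was not reversed there.

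Along the arm, control level and HMGA1 pileup were described in 4 segments, whose limits were set after the values were seen. The limits at 31750000 and 33250000 came from the median input control in 250 kb windows, and the limit at 60000000 from the bins. The order of the input control up to 60000000 therefore describes the choice. HMGA1 pileup and the H3 control were not used for the window limits. The centromere-side segment (29400001 to 31750000) had a median control level of 2.24 times the floor over input and 2.28 over H3. A stepped segment (31750001 to 33250000) followed at 1.29 and 1.34 times the floor. The long middle (33250001 to 60000000) had its median at the floor in both lists. The distal end (60000001 to 62962702) was at 1.14 and 1.2 times the floor. Median HMGA1 pileups over the same segments were 33, 22, 16 and 18 reads over input and 38.5, 24, 20 and 24 reads over H3, so pileup and both controls were highest in the first segment and lowest in the middle. Because the caller asks for more HMGA1 reads where the control is higher, called pileups are tied to the control. The part of that limit in the pileups was not tested.

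**Figure D2:**
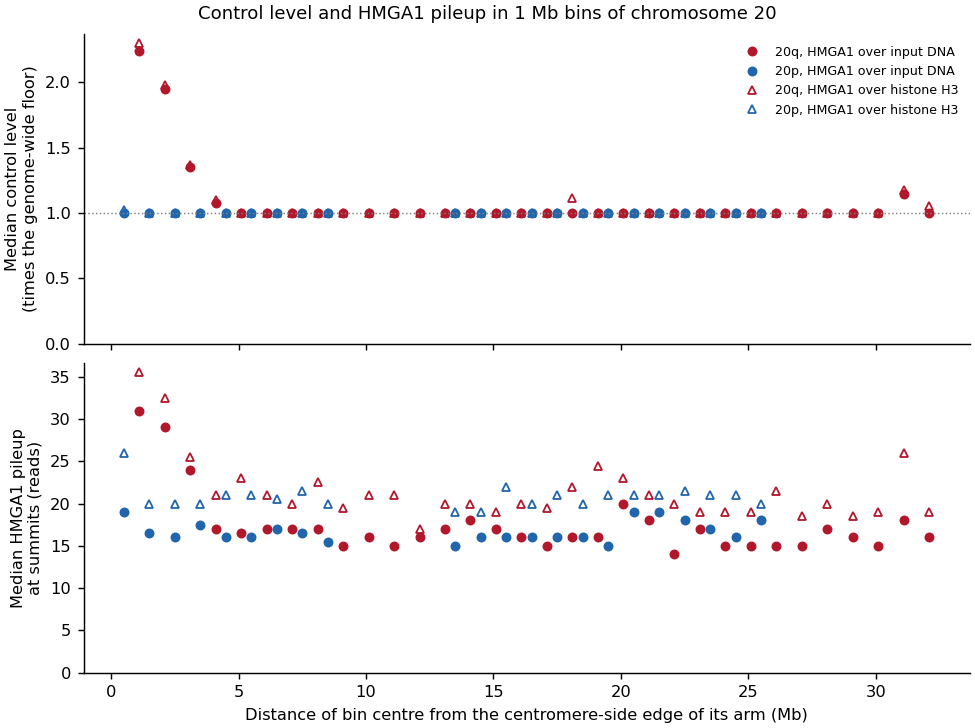
Median control level as a multiple of its genome-wide floor (top) and median HMGA1 pileup at summits in reads (bottom) for each full 1 Mb bin, against the distance of the bin centre from the centromere-side edge of its arm in Mb; filled circles are the input list, open triangles the H3 list, red 20q and blue 20p. The first 4 full bins of 20q fall from 2.24 to 1.08 times the input floor, and the bins of 20p lie at it.

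The change was not gradual over the whole arm but took place within about 4 Mb of the centromere-side edge. In the input list the 1 Mb bins starting at 30000001, 31000001, 32000001 and 33000001 stood at 2.24, 1.95, 1.35 and 1.08 times the control floor. Over H3 the same bins stood at 2.3, 1.98, 1.37 and 1.1 times the floor, so the 2 control libraries fell in parallel. HMGA1 pileups in these 4 bins were 31, 29, 24 and 17 reads over input. From 34000001 to 60000000 the median input control was at the floor in 26 of 26 bins, and the H3 control was at its floor in 25 of 26, the bin starting at 47000001 standing at 1.11 times. Median pileups of these 26 bins stayed between 14 and 20 reads over input and between 17 and 24.5 over H3.

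In 250 kb windows the largest drop was out of the window from 29500001 to 29750000, from 8.96 to 2.33 times the input floor and from a median of 78 to 30 HMGA1 reads. Control levels then stayed between 1.92 and 2.56 times the floor up to 31750000, where the next drop fell. The window ending there had an input control of 2.0 times the floor and a median of 30 HMGA1 reads over 18 peaks, and the next window had 1.32 times and 19 reads over 7 peaks. Over H3 the same neighbours stood at 2.08 and 1.23 times the floor, with smaller change in HMGA1 reads, from a median of 35 to 29 over 10 and 4 peaks. Within the stepped segment the window from 32750001 to 33000000 rose again to 1.56 times the input floor and 1.54 times the H3 floor, with 26.5 and 30 reads. The windows beside it had 1.11 and 1.19 times the input floor. From 33250001 to 36000000 the median input control was at the floor in each window that held a peak. Few peaks stand behind each window, so the limits are known only to about the width of a window.

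**Figure D3:**
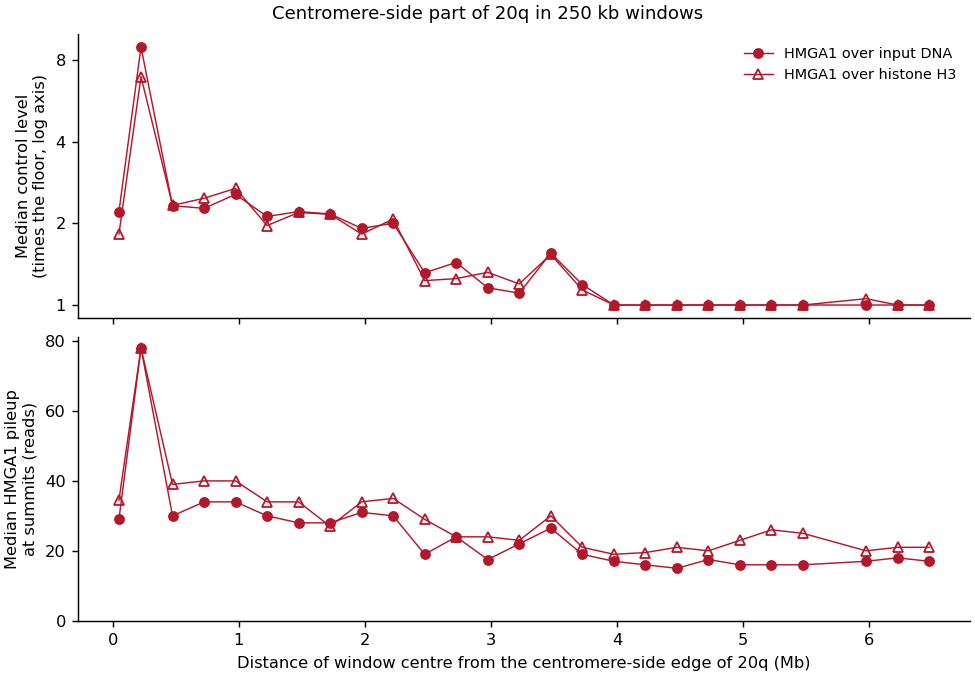
Median control level as a multiple of the floor (top, log axis) and median HMGA1 pileup in reads (bottom) in 250 kb windows of the centromere-side part of 20q, against the distance of the window centre from the edge of the arm in Mb; filled circles are the input list and open triangles the H3 list. Control levels peak at 8.96 (input) and 6.97 (H3) times the floor in 1 window and reach the floor about 4 Mb from the edge.

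The short arm had no counterpart of this length. All 22 full bins of 20p had a median input control at the floor, and 21 had a median H3 control at it. Its control rose only close to the centromere: the window from 25750001 to 26000000 stood at 1.28 times the floor over input and 1.21 over H3, with 23 and 27 HMGA1 reads. The rise went on past the limit of 20p as defined. The 58 input-list and 40 H3-list peaks between the arms had median controls of 1.6 and 1.65 times the floor. Among 1 Mb bins of 20q with at least 20 peaks, 2 of 31 had a median input control of at least 2 times the floor, and 2 of 19 did over H3. The share over all autosomes was 3.36% of bins over input and 2.59% over H3.

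No peak of the centromere-side segment sat at the control floor, 0 of 229 over input and 0 of 180 over H3; the segment was chosen for a raised input control, so this describes the choice. In the middle 81.6% of input-list peaks (79.3 to 83.6) and 80.5% of H3-list peaks (76.9 to 83.6) did. On 20p the shares were 78.0% (76.1 to 79.9) and 80.8% (78.1 to 83.2), whose intervals overlap those of the middle. For 20q as a whole the shares were 63.4% and 53.1%, set against 36.4% and 42.9% for the full lists. Chromosome X reached 97.4% over input and chromosome 22 reached 70.4%. The floor hides any control level below it, so whether the middle of 20q lies below 20p in input DNA could not be read from these values.

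Density in the segments followed another order from that of the control. Over input the centromere-side segment held 97.4 peaks per Mb, the stepped segment 87.3, the middle 46.9 and the distal end 13.8. Over H3 the densities were 76.6, 68, 20.3 and 7.09. The centromere-side segment was thus 2.08 times as dense as the middle over input (1.81 to 2.39) and 3.77 times as dense over H3 (3.19 to 4.47). The distal end was the sparsest, but its limit was set after the bins were seen, so its low density describes the choice. Its control was above the floor at 68.3% of its 41 input-list peaks, compared with 18.4% in the middle.

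Where the control was at its floor, the middle and 20p differed in density. Both had their median control at the floor, below which levels are not seen, and both had a median of 16 HMGA1 reads over input, with 20 against 21 over H3. The middle held 0.618 times the density of 20p over input (0.575 to 0.665) and 0.536 times over H3 (0.482 to 0.597). Counting only peaks at the control floor, the densities were 38.2 and 59.1 peaks per Mb over input, a ratio of 0.647 (0.597 to 0.701), and 16.3 and 30.6 over H3, a ratio of 0.534 (0.475 to 0.602). Median folds of these floor peaks were equal, 4.5 over input and 5.25 over H3 on both sides, but medians of called peaks are held together by the calling limit.

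The 5 densest full bins of 20q over input were of different kinds. The bin starting at 53000001 held 94 peaks and the one starting at 38000001 held 91. Both were inside the middle, with 87.2% and 89.0% of peaks at the floor and a median of 15 reads each. The other three, starting at 30000001 (92 peaks), 32000001 (87) and 33000001 (81), belonged to the first 2 segments or began inside the second and had controls above the floor. Over H3 the 2 middle bins held 36 and 42 peaks, and the other three held 68, 72 and 44. An H3 counterpart was present for 37.2% and 45.1% of input-list peaks in the middle bins and for 70.7%, 80.5% and 54.3% in the others, so the bin starting at 33000001 lay nearer to the middle bins.

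The sparsest full bins over input started at 61000001 with 5 peaks, 60000001 with 18, 55000001 with 26 and 36000001 with 29. The bins starting at 44000001, 48000001 and 56000001 shared the next place with 31 each. Over H3 these 7 bins held 2, 8, 8, 16, 15, 12 and 10 peaks. Across the 32 bins the input and H3 numbers had a Spearman correlation of 0.902, which is a description of neighbouring bins that share their HMGA1 reads. Number of peaks and median pileup over input had a weak correlation of 0.163. The bin starting at 30000001 was second in number and had the highest median pileup of the full bins, 31 reads, whereas the bins starting at 53000001 and 38000001 had 15.

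Peaks of 20q were widely and unevenly spaced. The median distance between neighbouring summits was 8.69 kb over input (quartiles 2.69 and 24.1 kb), against 6.89 kb on 20p and 3.2 kb on the other autosomes. It was 3.63 kb in the centromere-side segment and 10.3 kb in the middle. Over H3 the medians were 15.3 kb on 20q, 14.2 kb on 20p, 4.05 kb in the first segment and 26.7 kb in the middle. Stretches of more than 100 kb without an input-list peak numbered 42 on 20q and 7 on 20p, and over H3 they numbered 81 and 36. The 3 longest stretches of 20q without an input-list peak ran from 61672806 to 62252984 (580.2 kb), from 44367891 to 44696108 (328.2 kb) and from 61035332 to 61351837 (316.5 kb). The longest on 20p was 164.8 kb, apart from the stretch left out. Over H3 the longest of 20q ran from 61553394 to 62559192 (1006 kb), around the longest of the input list, and from 46250101 to 47136828 (886.7 kb), and the longest of 20p was 401.4 kb. Close pairs were about as common on both arms, with 9.79% of 20q and 10.1% of 20p input-list summits within 1 kb of the next.

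The 10 peaks of 20q with the highest q-value all lay in the centromere-side segment, in each list. The first in both lists, from 29588890 to 29589391 in the input list, had 211 HMGA1 reads over a control of 21.6 input reads and was 9.37-fold enriched. Over H3 it had a control of 19.0 reads and a fold of 8.35. This peak and 3 others of the input top 10, from 29583386 (166 reads, 6.23-fold), from 29607051 (124 reads, 7.02-fold) and from 29620403 (161 reads, 5.18-fold), lay in the window from 29500001 to 29750000. There the median control was 8.96 times the floor over input and 6.97 over H3, and the median pileup was 78 reads in each list. Their place in the ranking came with high reads over a high control, at lower folds than the other peaks of the input top 10. These folds were still above the 20q median of 4.23 over input.

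The remaining 6 of the input top 10 combined lower reads with higher folds. The peak from 30655563 to 30656382 had 101 reads over 5.19 input reads, a 16.5-fold enrichment and the highest fold of the arm in both lists (15.2 over H3). The peaks from 30910838 to 30911368, from 30046089 to 30046639 and from 31524641 to 31525290 had 98, 100 and 87 reads and were 14.65-fold, 13.97-fold and 13.56-fold over input. Those from 30019551 and from 29887589 had 82 reads each and folds of 11.6 and 10.2. All 10 were also found over H3. The H3 top 10 shared 8 sites with them, and added a peak from 29448013 to 29448783 (72 reads, 13.2-fold over H3) and one from 29585101 to 29585397 (140 reads, 8.58-fold). At the first of these added sites H3 was at 3.37 reads and input at 10.7 reads, and at the second they were at 11.9 and 25.8 reads. Both sites therefore had more input than H3 signal relative to their floors.

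Outside the first segments the strongest sites were single peaks over a control at its floor. The fifth-highest fold of 20q belonged to the peak from 48169720 to 48170621, with 49 HMGA1 reads and 13.2-fold over input. The H3-list peak at the same summit, from 48169825 to 48170240, was 12.4-fold over H3. Next in the middle, chosen after their values were seen, came peaks from 45048410 to 45048942 (48 reads, 12.96-fold over input), from 33700652 to 33701574 (47 reads, 12.7-fold), from 48691816 to 48692145 (43 reads, 11.6-fold) and from 47666594 to 47666918 (40 reads, 10.8-fold). Folds at the floor can understate the enrichment, since the control reads there can be fewer than the floor. No peak of the middle exceeded 50 reads, whereas 52 of the 229 input-list peaks of the centromere-side segment did.

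**Figure D4:**
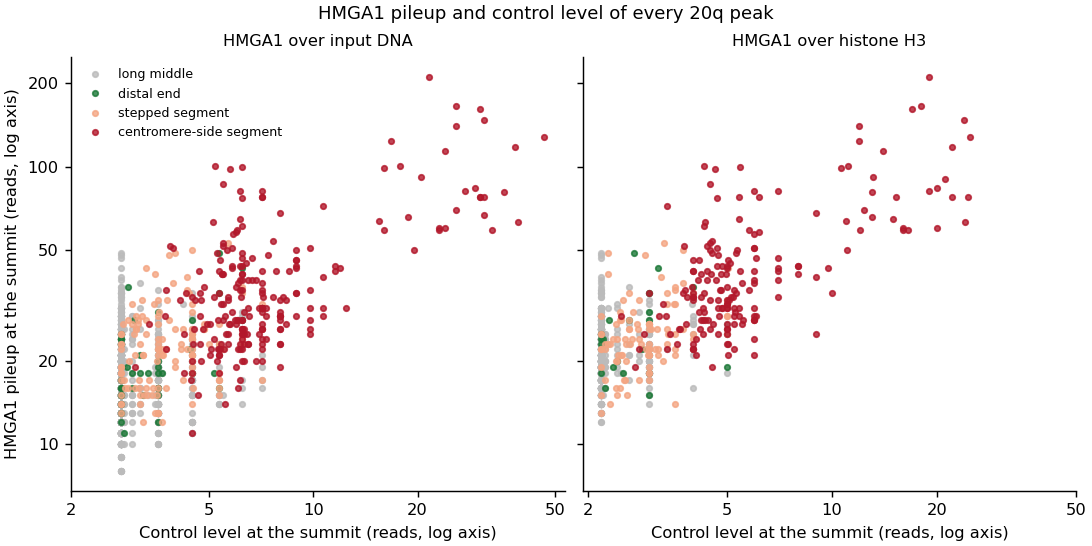
HMGA1 pileup against control level at the summit of every 20q peak, both in reads on log axes, over input (left) and over H3 (right), coloured by segment. Peaks of the long middle stand mostly at the control floor with at most 49 HMGA1 reads, and those above 100 reads belong to the centromere-side segment.

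Over all called peaks, higher pileups in the centromere-side segment did not come with a higher median fold. Such medians are held together by the calling limit. Over input the median fold was 4.01 there, 4.72 in the stepped segment and 4.23 in the middle and, over H3, 4.62, 5.12 and 5.11. Without the window from 29500001 to 29750000 the first segment had 4.14 and 4.75. Among only the 20 highest folds per Mb of each part, the order differed. Their median over input was 7.66 in the first segment, 5.55 in the middle and 6.35 on 20p. These sets were 47 of 229, 535 of 1254 and 479 of 1815 peaks, so a smaller share was kept where peaks were denser. The order of these medians is therefore tied to density and does not show a difference in enrichment. Over H3 the medians were 7.19, 5.17 and 5.99, where the set of the middle was 535 of its 543 peaks. Folds at the floor can be understated, and 81.6% of the input-list peaks of the middle were there, so these medians do not compare HMGA1 per copy.

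Wide peaks were few. Of the input-list peaks 8.7% were at least 500 bp wide on 20q and 9.09% on 20p, compared with 17.1% on the other autosomes. Median widths were 263, 270 and 298 bp. The widest of the arm, from 38767726 to 38769398, covered 1673 bp with 18 reads at its summit and a 5.02-fold enrichment, and 2 H3-list peaks overlapped it. The next were from 58455865 to 58457006 (1142 bp, 16 reads) and from 29933002 to 29934132 (1131 bp, 53 reads). The latter was also the widest of the arm over H3, at 1082 bp, followed by peaks from 37974219 to 37975187 (969 bp, 28 reads) and from 29477004 to 29477950 (947 bp, 32 reads). The widest peaks thus included low ones of the middle as well as taller ones near the centromere.

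Of the 1655 input-list peaks of 20q, 830 were also found over H3 (overlap of at least 1 bp). This was 50.2% (47.7 to 52.6), compared with 49.3% (47.0 to 51.6) on 20p, 50.7% on chromosome 22 and 65.8% in the whole list. In the other direction 838 of 846 H3-list peaks, 99.1% (98.1 to 99.5), overlapped an input-list peak, with 98.3% for the whole list. The 20q peaks found over H3 stood at a median of 23 HMGA1 reads, and the 825 others at 14. The share was 75.5% (69.6 to 80.7) in the centromere-side segment, 76.3% (68.4 to 82.8) in the stepped segment, 42.7% (40.0 to 45.5) in the middle and 51.2% (36.5 to 65.7) in the distal end.

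At matched peak height the order of the centromere-side segment and the middle was the reverse. The stepped segment and the distal end were not split by height. For summits with 25 reads or more, 161 of 182 input-list peaks of the centromere-side segment were found over H3, 88.5% (83.0 to 92.3), against 118 of 118 in the middle (96.8 to 100%) and 98.6% on the other autosomes. For 21 to 24 reads the share was 39.3% (23.6 to 57.6) in the first segment, 97.1% (92.8 to 98.9) in the middle and 98.3% (95.7 to 99.3) on 20p. Peaks were matched on HMGA1 reads but not on control level, and the first segment was chosen for a raised input control. The lowest H3-list pileup was 19 reads in the first segment and 12 in the middle. The part of the calling limit in these shares was not tested. For 14 to 16 reads the middle had 17.9% (14.3 to 22.2), 20p 23.6% (19.99 to 27.7) and the other autosomes 31.7%, and the intervals of the middle and 20p overlap.

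**Figure D5:**
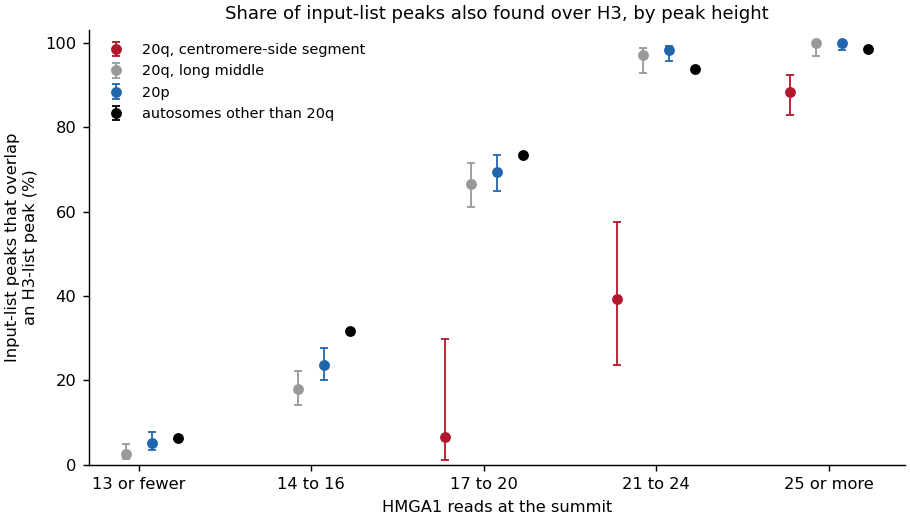
Share of input-list peaks that overlap an H3-list peak by at least 1 bp, in percent, by number of HMGA1 reads at the summit, with Wilson 95% intervals; classes with fewer than 10 peaks are not drawn. At 21 to 24 reads the centromere-side segment of 20q stands at 39.3%, the long middle at 97.1% and 20p at 98.3%. Control levels differ between these parts and are not matched.

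Only 8 H3-list peaks of 20q had no input-list counterpart. Of these, 5 were in the centromere-side segment, 2 in the stepped segment and 1 in the middle, from 57595628 to 57595819 (19 reads, 5.0-fold over H3). The tallest, from 29604514 to 29604937, had 65 reads over 15 H3 reads and a fold of 3.26. On 20p there was 1 such peak.

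Summits of both lists coincided to the base at 377 sites of 20q, all with equal HMGA1 reads, and there the 2 controls could be compared directly. The ratio of H3 to input, each relative to its floor, had a median of 1.0 on 20q with quartiles of 0.929 and 1.01. Input exceeded H3 by more than 1.5 times at 28 of these summits (7.43%) and H3 exceeded input by as much at 12 (3.18%), compared with 11.8% and 4.12% of the 114050 such summits of the whole lists. Where both controls are at their floor the ratio is fixed at 1. That held for 42.7% of the 20q summits and 22.5% of all, so these shares do not compare like with like. In the centromere-side segment the ratio was 0.993 (quartiles 0.838 and 1.11) over 80 summits, with both controls raised together. In the window from 29500001 to 29750000 it was 0.813 (0.699 to 0.932) over 15 summits, and in the rest of the segment 1.02 (0.878 to 1.12) over 65. At the 243 summits of the middle both controls were at their floor in 65.4% of cases, so this ratio is mostly unmeasured there.

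At the limit that defines the arm, the first input-list peak inside ran from 29420234 to 29420528 with 42 reads over 1.92 times the floor. The last one outside ran from 26255372 to 26255587, with 16 reads over 1.44 times the floor. No peak lay between them in either list, and whether reads can be placed in that stretch was not examined.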

How the data were processed

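HMGA1 ChIP, H3 ChIP and input DNA of DAMI cells were sequenced, 1 library each. Peaks were called with MACS2 on hg19, per the submitters' processing notes. Not given in the sources used here were its version, the aligner and any read filter. The deposited lists give for each peak a fold (ratio), the −log10 of its p-value and q-value, and a score. Total depth is unknown. Peak names do not spell HMGA1; the ChIP was taken as HMGA1 from the list titles.

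Pileup and control were solved from the fold, assumed to be their ratio with 1 added to each, and from a Poisson p-value. Whole pileups fitted 385953 of 385953 input-list and 263033 of 263033 H3-list peaks within 0.001 of −log10 p, with HMGA1 scaled by 0.787 in the H3 list, a factor found on 400 peaks. The recovery was tested on data simulated with the same formulas, which checks the solving but not the assumed formulas. Summaries used 1 Mb bins and 250 kb windows; overlap was at least 1 bp. The first segment is the leading run of windows with a median input control of at least 1.5 times the floor, the second the following run above the floor, and the distal end starts at 60000000, set after seeing the bins.

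Named items follow a rule for 20q: the 10 highest q-values, 5 highest folds and 3 widest peaks per list, the 5 densest and 5 sparsest full bins and the 3 longest peak-free stretches. The gene list of that rule was not used, for want of an hg19 annotation here, and no sequences are printed. Members and lists were chosen with earlier results of these data known. Coordinates are 1-based on hg19 unless stated. Software was Python 3.11.15 with scipy 1.17.1, numpy 2.4.6, matplotlib 3.10.9 and pandas 2.3.3.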

Additional observations from a re-analysis of the deposited data

How the results depend on the processing

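No paired analysis was possible because each group is 1 library, and for the same reason no replicate could be left out. The floor hides low control levels, and sites under 8 (input list) or 11 (H3 list) HMGA1 reads were not detectable at this depth. With other thresholds, limits, bins and overlaps 38 values stayed within their counting interval or within 1.5 times for counts. Starting at 34000000 and counting floor peaks alone were chosen after the data were seen; the cause of the changes below was not tested.

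The number of 20q peaks over input fell to 1087 with a −log10 q of at least 5 and to 971 with a fold of at least 4, and over H3 to 546 from 34000000 on. The 20q to 20p density ratio reversed to 1.503 (input) and 1.706 (H3) with the 20000 highest-q peaks. Over input it was otherwise 0.7037 with the stricter q, 0.5979 with 2 Mb bins, 0.5698 from 34000000 on and 0.529 at the floor. Over H3 it was 0.589 with both centromere sides trimmed, 0.589, 0.5263 and 0.5235 with 1 Mb, 500 kb and 2 Mb bins, 0.4982 from 34000000 on and 0.4376 at the floor. The floor ratios divide by the whole length of 20q, including the centromere-side segment, which was chosen for a raised control and holds no floor peak. For the middle alone they were 0.647 (input) and 0.534 (H3). Median 20q pileups over input were 21 with the stricter q, 16.25 over bins and 16 from 34000000 on; over H3 they were 24, 20 and 20, and 21 from 31000000 on. For 20p they were 20 (input) and 22 (H3) with the stricter q. The share of 20q peaks at the floor was 60.72% over input with the stricter q, and over input and H3 79.8% and 79.58% as a median of bins, 71.28% and 64.14% from 31000000 on and 80.42% and 78.21% from 34000000 on. The share of input-list peaks found over H3 was 62.37% with the stricter q and 43.09% from 34000000 on. The reverse share was 94.21% with 50% of both peaks, 98.11% with summits within 200 bp, 97.29% with the stricter q and 99.82% from 34000000 on.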

Other observations

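Chromosome 20 peaks that belong to neither arm as defined had these values. Between the arms, none beyond 26255587, lay 58 input-list and 40 H3-list peaks, with median pileups of 22 and 27 reads and control levels of 1.6 and 1.65 times the floor. The stretch of 20p left out, from 13976146 to 16033841, held 77.3 input-list and 32.6 H3-list peaks per Mb, with 88.7% and 92.5% of peaks at the floor and medians of 16 and 18 HMGA1 reads.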
